A study of Equus caballus with 17 samples.

Results

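The comparison described here is that of culture time in room-air oxygen: horse skeletal muscle cells kept at 21% O2 for 72 h against the same kind of culture kept at 21% O2 for 48 h. The libraries were chosen by their treatment label alone, and 9 of the 17 libraries of the series belong to it, 4 at 72 h and 5 at 48 h. The cells came post mortem from the gluteus medius of a single animal, described in the labels as a 10-month-old preterm foal, where it is unclear whether the age is that of gestation, and were pre-plated, a step that removes part of the fibroblasts. Cells of both groups attached overnight in gelatin-coated flasks and then stayed in standard incubators with 5% CO2, without any hypoxic treatment or added agent. The groups therefore differ by label only in the hours of culture. The other libraries, from cells at 1% or 3% O2, are not used here.

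Myoblasts are the precursor cells of muscle fibres. In culture they divide while they have room and growth factors, and as they become dense they can leave the cell cycle, switch on genes of the contractile apparatus and fuse into multinucleated myotubes. Cultures grown from muscle tissue can also hold fibroblasts and other connective tissue cells, which deposit extracellular matrix. In RNA from a whole culture, a change in the share of a cell type and a change in RNA per cell cannot be told apart. The files name genes by Ensembl horse gene IDs and do not pair them with symbols, so markers of myoblasts, myotubes or fibroblasts were not checked, and the results are given for gene groups and for 4 genes by ID.

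Per the labels, 3 technical replicates were prepared for each group, while the groups hold 4 and 5 libraries. Nothing in them says that the libraries came from separate cultures, so the tests below speak of these samples and their spread alone. The depth at 48 h was 18803267, 14680023, 16529670, 24274627 and 21798338 counts in replicates 1 to 5, and that at 72 h 14599931, 21478497, 20770746 and 12552499 counts in replicates 1 to 4. The groups overlapped in depth, and their mean totals did not differ by the test (exact permutation test, two-sided p = 0.484). RNA was of high integrity, with RNA integrity numbers of 9.6 to 10.0 stated in the labels.

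On the main axis of variation, 1 library of each group stood apart from the rest of the group. On the first principal component of log2 CPM (CPM being counts relative to the effective library size that the TMM method gives), which held 58.0% of the variance, replicates 1, 2, 4 and 5 at 48 h had scores of -46.5, -34.6, -48.8 and -44.1. Replicate 3 at 48 h had a score of 19.4, on the side of the 72 h libraries. Those were at 27.8 for replicate 1 and at 43.1, 42.4 and 41.3 for replicates 2, 3 and 4. No 48 h library reached the range of the 72 h libraries on this component. The second component held 20.5% of the variance and separated libraries within both groups. Replicates 2 and 3 at 48 h (30.0 and 44.2) and replicate 1 at 72 h (23.4) were high on it, while the other 6 libraries lay between -20.3 and -12.9.

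**Figure D1:**
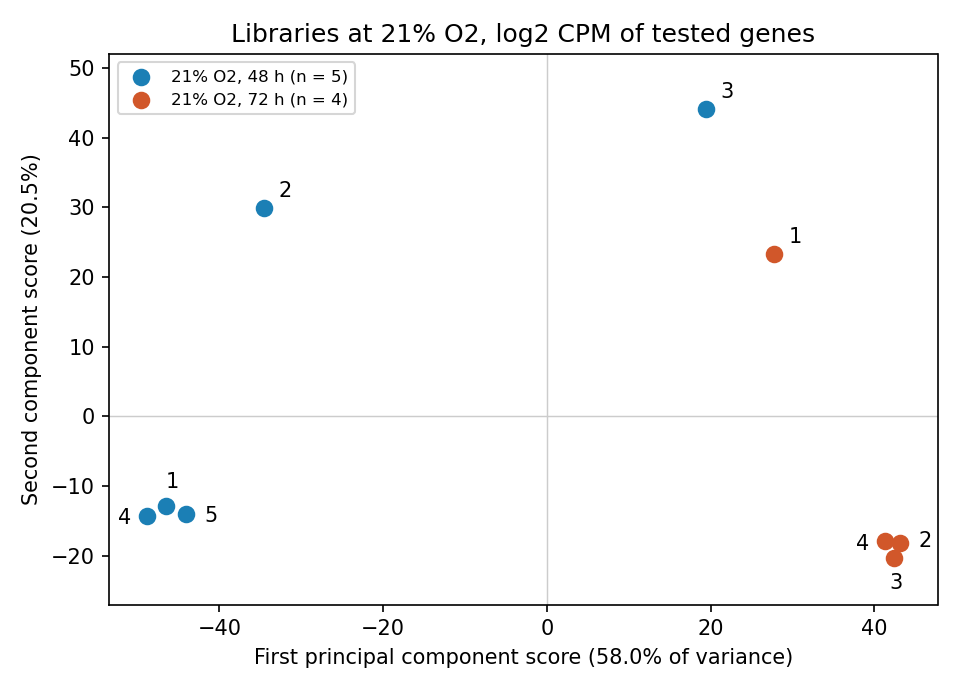
Scores of the 9 libraries on the first (horizontal) and second (vertical) principal component of log2 CPM over 13727 tested genes, with the percentage of variance on each axis. Points are libraries, colour gives the culture time and numbers are the replicate numbers. Replicate 3 at 48 h (19.4, 44.2) lies nearest to replicate 1 at 72 h (27.8, 23.4), away from the other 4 libraries at 48 h.

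Distances between libraries set a further library at 48 h apart, replicate 2. In genes whose counts averaged 100 or more, replicates 2, 3 and 4 at 72 h differed from each other by a median of 0.0796 to 0.0918 in log2 CPM. Replicate 1 at 72 h differed from those 3 by 0.186 to 0.22. At 48 h, replicates 1, 4 and 5 differed from each other by 0.112 to 0.149. Replicate 2 at 48 h was 0.248 to 0.341 from its own group and 0.238 from replicate 1 at 72 h, its nearest library. The distance of replicate 3 at 48 h from its own group was 0.337 to 0.364. It was nearer to every 72 h library, at 0.193 from replicate 1 and 0.249 to 0.259 from replicates 2, 3 and 4. Replicates 1, 4 and 5 at 48 h were 0.256 to 0.318 from the 72 h libraries. The spread within groups differed too, by what edgeR calls the biological coefficient of variation. That is the spread between libraries beyond counting error, whether or not they came from separate cultures. It was 25.6% over the 5 libraries at 48 h and 14.2% over the 4 at 72 h. It was 17.2% at 48 h without replicate 3 and 7.52% at 72 h without replicate 1. By chi-square over degrees of freedom the most alike pair was replicates 2 and 4 at 72 h, at 3.71. This measure covers counting error only and does not show whether libraries came from separate cultures. No pair had identical counts or counts that agreed within counting noise, and each of the 9 libraries was counted once.

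From 48 h to 72 h, 1243 genes rose and 765 fell, which makes 2008 changed genes among 13727 tested, or 14.6% (edgeR quasi-likelihood test, Benjamini-Hochberg adjusted p under 0.05). The risen genes made up 9.06% and the fallen genes 5.57% of the genes tested. The rises were larger than the falls: the median log2 fold change was 1.06 over risen and -0.71 over fallen genes. Over all genes tested the median was -0.01. Among the risen genes 661 changed by at least 2-fold and 268 by at least 4-fold, while among the fallen genes 176 and 21 did. An 8-fold change was passed by 73 risen genes and 1 fallen gene. With scaling by library size alone the balance shifted further to rises, with 1437 risen and 487 fallen genes. With DESeq2 size factors it shifted slightly the other way, with 1198 risen and 810 fallen genes. Over all alternatives the risen share of the changed genes ran from 51.5% (limma-voom with sample quality weights) to 89.1% (test against a fold of 1.5).

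Leaving out replicate 3 at 48 h gave 2459 risen and 2252 fallen genes, or 34.4% of those tested. The changed genes found with all 9 libraries were nearly all among these, 2005 of 2008, each in the same direction. Without that library the median log2 fold change was 0.83 for the risen and -0.56 for the fallen genes, since more genes with small changes passed. At least 2-fold changes then numbered 1007 rises and 338 falls. Without replicate 1 at 72 h, 1371 genes rose and 901 fell (16.3% of those tested). Without both of these libraries, a choice made after seeing the data, 2750 rose and 2453 fell (37.3%).

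Other libraries moved the count downward. When replicate 1, 4 or 5 at 48 h was omitted, 1252, 1198 or 1222 genes passed, in that order. When replicate 2, 3 or 4 at 72 h was omitted, 834, 962 or 902 did. Without replicate 2 at 48 h, 1872 genes passed. A common set of 780 genes, 38.8% of the 2008, passed in the fit of all libraries and in each of the 9 fits that left a library out. Of these, 608 rose and 172 fell, with median log2 fold changes of 1.62 and -0.92. For 759 of the 780 the libraries of the 2 groups did not overlap, against 13.9% of all genes tested. The 780 were chosen by fits of these same libraries, so this is a description and no further support.

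**Figure D2:**
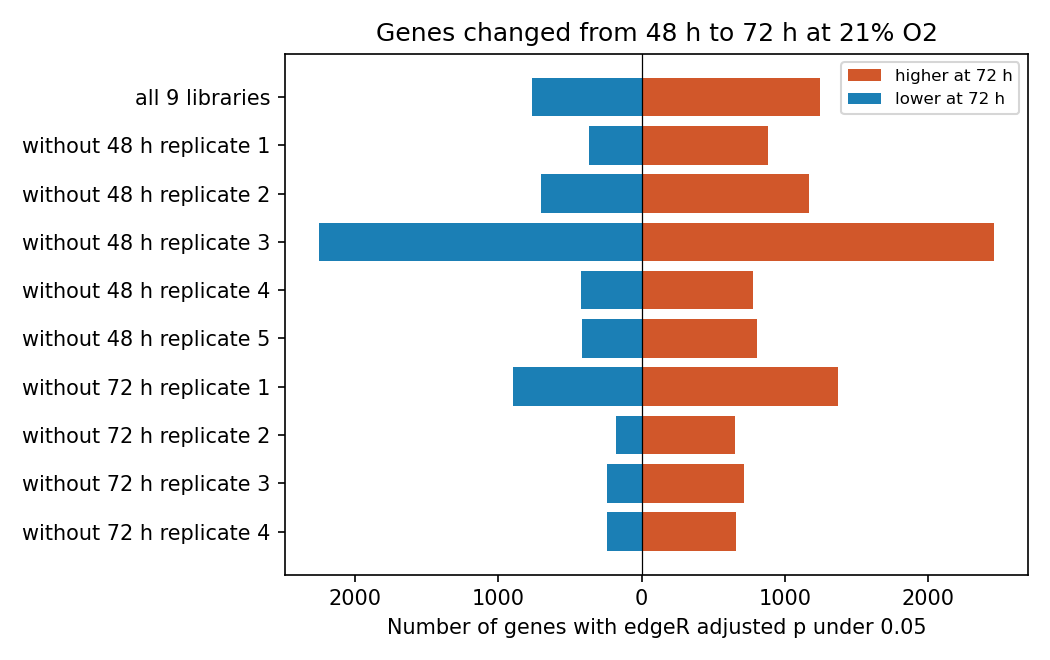
Number of genes with edgeR adjusted p under 0.05 that were higher (right) or lower (left) at 72 h than at 48 h, with all 9 libraries and with each library left out in turn. The longest bars, 2459 higher and 2252 lower genes, are those without replicate 3 at 48 h, and the shortest, 655 and 179, those without replicate 2 at 72 h.

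Groups that did not overlap at all were seen for 1913 of the 13727 genes, or 13.9%, with all 4 libraries at 72 h above all 5 at 48 h for 9.28% and below them for 4.66%. Among the risen genes 81.7% had no overlap and among the fallen genes 59.9%, where both sets were called from these same libraries. The share over all genes tested was 33.4% without replicate 3 at 48 h, 26.3% without replicate 1 at 72 h and 46.0% without both.

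Changed genes occurred at every expression level, but rises and falls were distributed differently over the levels. Below a mean of 1 CPM, 116 genes rose and 21 fell among 1093 tested. At 1 to 10 CPM the numbers were 412 and 154 of 3724, and at 10 to 100 CPM 571 and 428 of 7034. At 100 to 1000 CPM there were 140 risen and 153 fallen genes of 1776, an order that turned with scaling by library size alone (166 and 99). Among the 100 genes at 1000 CPM and over, 4 rose and 9 fell. The sum of both directions stayed between 12.5% and 16.5% of the genes tested at each level. Without replicate 3 at 48 h it lay between 23.0% and 40.3%, with 285 rises and 430 falls at 100 to 1000 CPM. At 10 to 100 CPM the order turned without that library, with 1223 rises and 1320 falls.

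Size also varied with level. The median log2 fold change of risen genes was 2.16 below 1 CPM, 1.46 at 1 to 10 CPM, 0.76 at 10 to 100 CPM, 0.79 at 100 to 1000 CPM and 0.73 above. For fallen genes the medians in the same order were -1.44, -0.99, -0.63, -0.59 and -0.62. A small change is harder to detect at a low count, so the medians at low levels cover only changes large enough to pass: the smallest rise called below 1 CPM had a log2 fold change of 0.77, and the smallest at 100 to 1000 CPM one of 0.27. Large rises were not limited to weakly expressed genes. Rises of at least 8-fold were seen for 24 genes below 1 CPM, 35 at 1 to 10 CPM, 10 at 10 to 100 CPM, 3 at 100 to 1000 CPM and 1 at 1000 CPM and over.

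**Figure D3:**
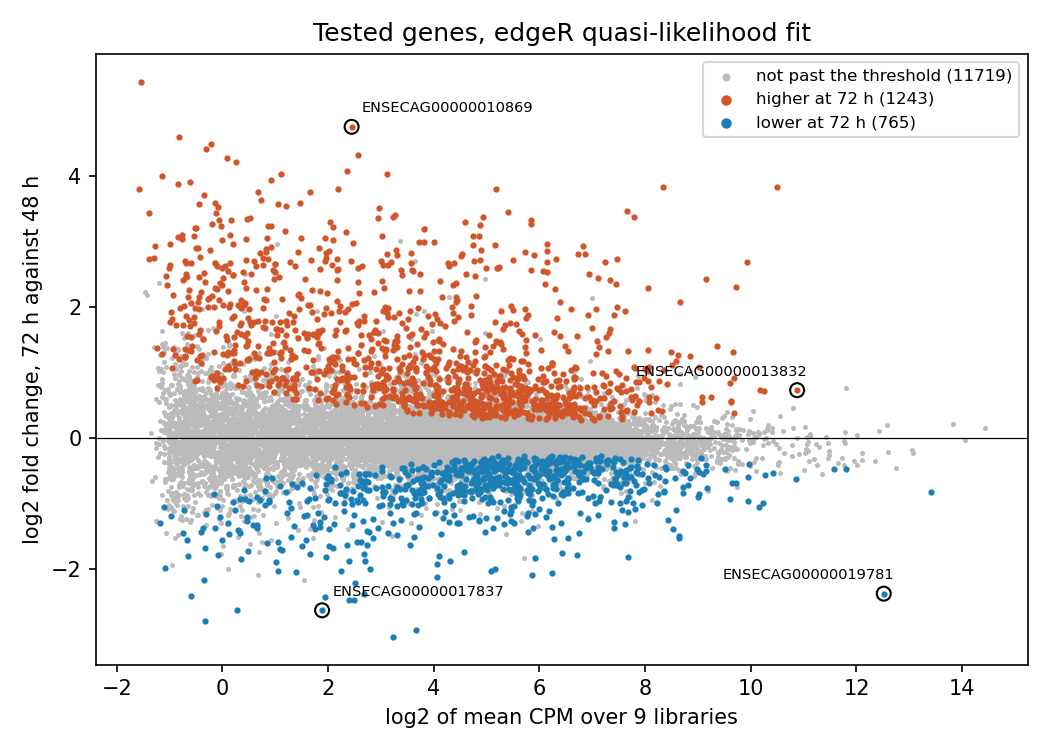
Log2 fold change of 72 h against 48 h (vertical) by log2 of the mean CPM over the 9 libraries (horizontal) for the 13727 genes tested. Orange points are the 1243 genes higher at 72 h, blue points the 765 genes lower, grey points the rest, and circles mark the 4 genes described by ID. Rises extend to larger fold changes than falls.

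The 4 genes given by ID are, in each direction, the one with the largest change and the most abundant one, among 750 risen and 403 fallen genes with no overlap and at least 5 CPM in the higher group. The values of all 4 are in CPM scaled by the TMM method, which takes no account of transcript length. On this scale a gene is compared with itself between libraries. Ranks among genes, the most abundant included, are therefore by reads and not by transcripts.

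Among these, the largest fold rise was that of ENSECAG00000010869, a gene nearly undetected at 48 h. Its levels at 48 h were 0.153, 0.143, 1.83, 0 and 0.271 CPM in replicates 1 to 5, and at 72 h 6.09, 11.7, 14.9 and 14.0 CPM in replicates 1 to 4. Replicate 3 was the highest library at 48 h and replicate 1 the lowest at 72 h, with no overlap of the groups, a condition of its choice. The level rose from 0.48 ± 0.762 CPM (SD, n = 5) to 11.7 ± 3.95 CPM (SD, n = 4). On the log2 scale this was a change of 4.76 ± 0.73 (SE) with an edgeR adjusted p of 0.00243. The 48 h value rests on few reads, 3, 2, 27, 0 and 6 counts in replicates 1 to 5, and the count of 0 in replicate 4 allows a level of up to 0.124 CPM (3 counts of the library total, counting error only). Without replicate 3 at 48 h the log2 change was 6.35 ± 0.49 (SE) and the edgeR adjusted p 1.1e-05.

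ENSECAG00000013832 was the most abundant of those risen genes and changed much less in fold terms. At 48 h its levels were 1190, 1946, 1660, 1288 and 1185 CPM in replicates 1 to 5. The 72 h libraries lay close together above all of these, at 2420, 2456, 2330 and 2447 CPM in replicates 1 to 4. Replicates 2 and 3 were the high libraries at 48 h. The mean rose from 1454 ± 337 CPM (SD, n = 5) to 2413 ± 57.3 CPM (SD, n = 4), which is 0.73 ± 0.16 (SE) in log2 terms, with an edgeR adjusted p of 0.0131. The call was lost without replicate 4 at 72 h (log2 fold change 0.71, edgeR adjusted p = 0.0567) and with a replicate block (edgeR adjusted p = 0.0724). Over the alternatives that test against no change, the adjusted p ran from 1.16e-06 to 0.0724. Against a fold of 1.5, a stricter question, the edgeR adjusted p was 0.66.

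Among the fallen genes under the same conditions, the largest fold fall was that of ENSECAG00000017837. Its levels were 4.80, 5.88, 5.70, 6.15 and 6.83 CPM in replicates 1 to 5 at 48 h. They were 2.69, 0.49, 0.517 and 0.232 CPM in replicates 1 to 4 at 72 h. All 48 h libraries, replicate 3 included, lay close together, and replicate 1 stood above the rest at 72 h. The mean fell from 5.87 ± 0.735 CPM (SD, n = 5) to 0.982 ± 1.15 CPM (SD, n = 4). The log2 difference was -2.63 ± 0.52 (SE), and edgeR gave an adjusted p of 0.00809. Without replicate 1 at 72 h it was -3.75 ± 0.26 (SE), with an edgeR adjusted p of 7.44e-05.

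ENSECAG00000019781 was the most abundant of the fallen genes that met the conditions, and at 48 h it held the 6th highest mean CPM of all genes tested. At 48 h its levels were 10120, 10699, 5748, 8777 and 10336 CPM in replicates 1 to 5, with replicate 3 the lowest. The 72 h levels were 2999, 1086, 1399 and 1539 CPM in replicates 1 to 4, with replicate 1 the highest. The mean fell from 9136 ± 2029 CPM (SD, n = 5) to 1756 ± 850 CPM (SD, n = 4), which placed the gene 52nd by mean level at 72 h. This log2 change of -2.38 ± 0.31 (SE) had an edgeR adjusted p of 0.00135. Without replicate 3 at 48 h it was -2.51 ± 0.28 (SE), with an edgeR adjusted p of 0.000114. The adjusted p of this gene stayed between 6.5e-14 and 0.00919 over all alternatives.

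**Figure D4:**
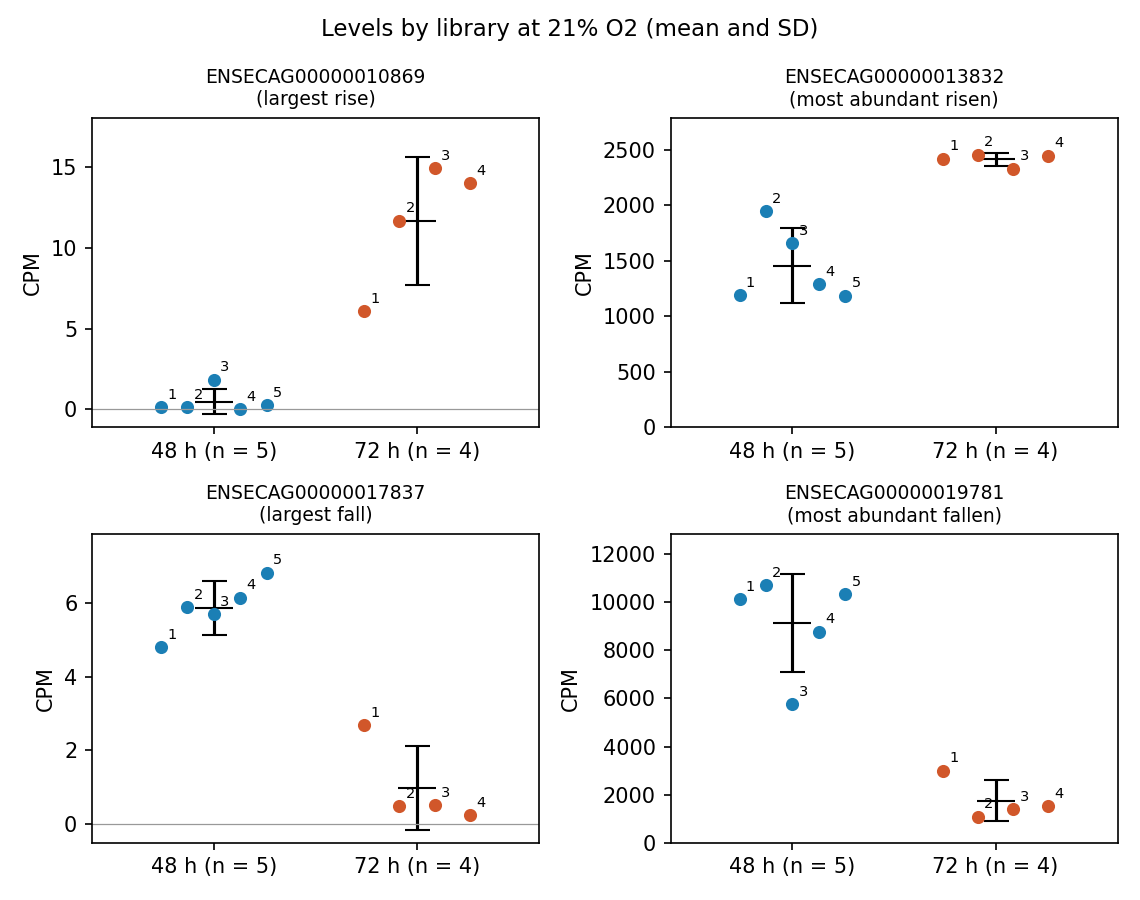
Level in CPM (vertical, linear) of the 4 genes in each library at 48 h (blue, n = 5) and 72 h (orange, n = 4), where numbers are replicate numbers and bars show the mean and SD. No overlap of the groups was a condition for choosing the 4 genes. For ENSECAG00000010869 and ENSECAG00000019781 replicate 3 at 48 h (1.83 and 5748 CPM) and replicate 1 at 72 h (6.09 and 2999 CPM) are the libraries nearest to the other group.

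The position of each library between the 2 groups was then measured on genes it had no part in choosing. For each library, the genes that passed in the fit of the other 8 libraries were taken, and its level was placed on a scale where 0 is the mean of the remaining 48 h libraries and 1 that of the remaining 72 h libraries. The gene sets therefore differ between libraries. Unless left out, replicate 3 at 48 h and replicate 1 at 72 h also entered these means. Positions are thus not fully comparable from library to library. Replicates 1, 2, 4 and 5 at 48 h had median positions of -0.129, 0.0995, -0.125 and -0.0947. Replicates 2, 3 and 4 at 72 h were at 1.13, 1.08 and 1.09. By their medians, these 7 libraries thus lay near the mean of their own group. Replicate 2 at 48 h did so less evenly. It was nearer to the 72 h mean at 20.8% of its genes, against 3.03% to 3.51% in replicates 1, 4 and 5. Replicate 1 at 72 h had a median position of 0.569 over 2272 genes, between the groups. The median position of replicate 3 at 48 h over 4711 genes was 0.843, and at 70.9% of them its level was nearer to the 72 h mean than to the mean of its own group.

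**Figure D5:**
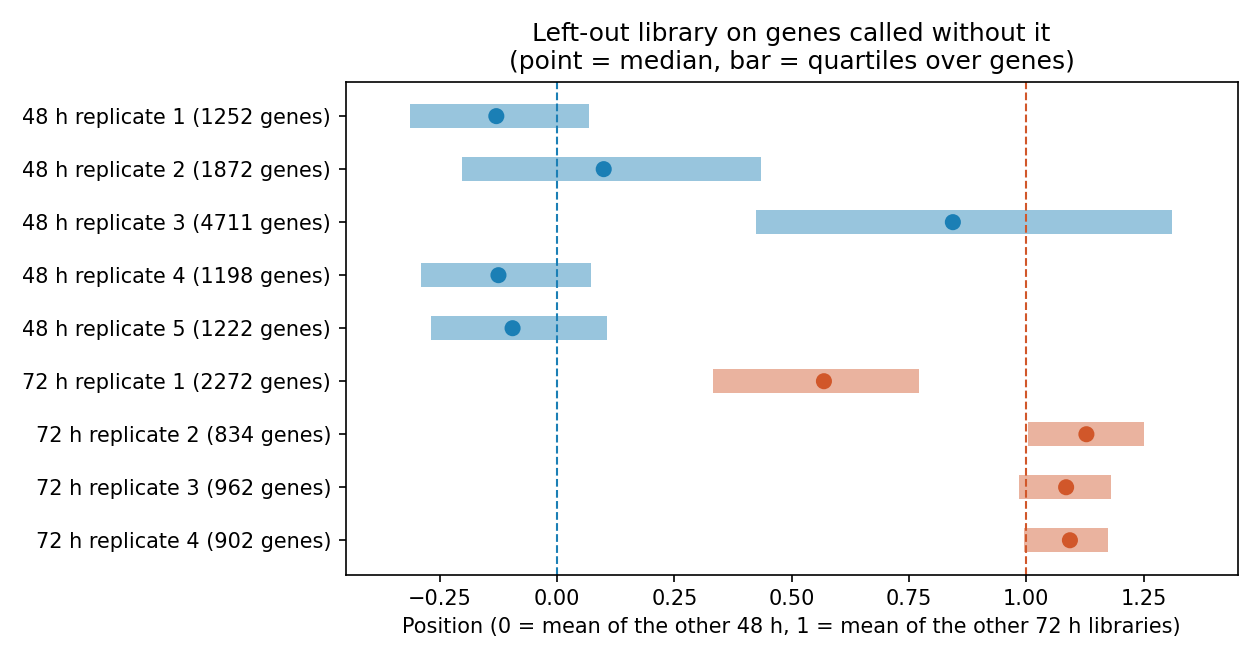
Position of each library (horizontal, no unit) on the genes called without it, where 0 is the mean of the other 48 h libraries and 1 the mean of the other 72 h libraries. Points are medians and bars run from the lower to the upper quartile over genes. Replicate 3 at 48 h has its median at 0.843 and replicate 1 at 72 h at 0.569, while the others lie between -0.129 and 0.0995 or between 1.08 and 1.13.

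Replicate 3 at 48 h lay at the 72 h levels for a larger share of fallen than of risen genes. Of the genes called without it, 4023 had groups that did not overlap among the other libraries. At 1878 such fallen genes, 69.4% of its values lay in or past the range of the 72 h libraries, and at 2145 such risen genes 45.4% did. Its median position was 1.04 for fallen and 0.706 for risen genes. Replicate 1 at 72 h also lay at the levels of the other group for a larger share of fallen genes, with 25.5% of its values in or past the 48 h range at 1302 risen genes and 46.5% at 795 fallen genes. Replicate 2 at 48 h, the third library high on the second component, had 8.45% of its values in or past the 72 h range at risen genes and 20.7% at fallen genes. The 48 h range used for replicate 1 at 72 h included replicate 3 at 48 h. Likewise, the 72 h range used for replicates 2 and 3 at 48 h included replicate 1 at 72 h. The shares of these libraries therefore depend on each other. Genes of 1 library are not independent of each other either, and these shares describe those libraries without a test.

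The risen genes together accounted for a larger part of the counts at 72 h, a difference that follows from how they were chosen and is given as a description. They made up 3.90%, 4.09%, 4.82%, 3.91% and 4.05% of all counts in replicates 1 to 5 at 48 h. At 72 h the shares were 6.63%, 9.18%, 10.4% and 9.09% in replicates 1 to 4. Replicate 3 was the highest library at 48 h and replicate 1 the lowest at 72 h. The fallen genes held 11.8%, 9.87%, 8.67%, 10.6% and 11.6% of counts in replicates 1 to 5 at 48 h, and 7.09%, 5.88%, 6.09% and 6.15% in replicates 1 to 4 at 72 h. ENSECAG00000019781 alone took 0.512% to 1.05% of counts at 48 h and 0.114% to 0.29% at 72 h.

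By the main measure planned, gene IDs with at least 1 count as deposited, the groups did not differ by the test. At equal depth, an alternative measure, more genes were detected at 72 h. The number of gene IDs with at least 1 count was 18766, 18014, 18320, 19035 and 18785 in replicates 1 to 5 at 48 h and 18394, 19480, 19418 and 18362 in replicates 1 to 4 at 72 h, which overlapped (exact permutation test, two-sided p = 0.349). At the lowest library total of 12552499 counts, the expected number was 17926, 17711, 17780, 17715 and 17673 at 48 h and 18089, 18375, 18353 and 18362 at 72 h. All 4 libraries at 72 h then lay above all 5 at 48 h, replicate 3 at 48 h included. The means were 17761 ± 99.8 genes (SD, n = 5) and 18295 ± 137 genes (SD, n = 4), and the difference of 534 genes gave an exact two-sided permutation p of 0.00794, the smallest that 126 splits allow. Adjusted over the 6 library values tested it was 0.0476, while the p-values below with a library left out are not adjusted. Without replicate 3 at 48 h the difference was 539 genes (exact permutation p = 0.0286, the smallest that 70 splits allow), and without replicate 1 at 72 h it was 602 genes (exact permutation p = 0.0179, the smallest that 56 splits allow).

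Few genes were counted in every library of one group and in none of the other. There were 20 gene IDs with 0 counts in all 5 libraries at 48 h and at least 1 in all 4 at 72 h, with a median of 2 counts per library and at most 17. In the opposite direction there were 10, with a median of 1 count and at most 11. None of the genes in either set passed the filter on low counts, so none was tested for a difference.

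The concentration of counts in the most abundant genes varied more within groups than between them. In each library the 100 most abundant genes held 27.3%, 32.2%, 35.5%, 26.5% and 27.9% of counts in replicates 1 to 5 at 48 h and 31.3%, 26.8%, 27.8% and 27.2% in replicates 1 to 4 at 72 h. The means were 29.9 ± 3.82% (SD, n = 5) and 28.3 ± 2.05% (SD, n = 4), and the groups overlapped (exact permutation test, two-sided p = 0.5). Replicates 2 and 3 at 48 h and replicate 1 at 72 h had the highest shares, and the same 3 libraries were high on the second principal component. Whether this concentration has a part in their place among the libraries was not tested.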

How the data were processed

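Per the file headers, the authors deposited 1 table of whole-number read counts per Ensembl gene ID for each library, with 38849 IDs. Per the submitters' processing notes, the build was EquCab3.0 and the tools named, without their roles, were STAR 2.7.10a, HTSeq 0.13.5, fastp 0.23.2, bcl2fastq 2.20, DESeq2 1.38.0, R 4.2.2, MultiQC 1.14 and FastQC 0.11.5. Strand setting, annotation release and the handling of multi-mapping reads are not given in these sources, which makes the counts of overlapping genes, antisense partners and near-identical copies uncertain. The labels' protocols state paired-end reads of 100 bp. Of the IDs, 0 matched a symbol in the reference table, so lists of genes by symbol were not run.

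The 9 libraries at 21% O2 were fitted alone with edgeR 4.0.16 (R 4.3.3): filterByExpr, TMM scaling, a mean per group and the quasi-likelihood test, with Benjamini-Hochberg adjustment over 13727 of the 24014 genes with a count. Standard errors are those implied by the test statistic, and log2 CPM used a prior count of 2. Single library values were compared by exact permutation over 126 splits. Named genes were, in each direction, the largest change and the most abundant gene among those with adjusted p under 0.05, no overlap and at least 5 CPM in the higher group. Tested on simulated counts of 13727 genes for this comparison, the fit recovered 72% of 2-fold and 99% of 4-fold changes, with 7 false calls, among genes over 1 CPM and in libraries with no grouping within a time. The alternatives were a replicate block, robust empirical Bayes, glmTreat at a fold of 1.5, limma-voom (limma 3.58.1) with and without sample quality weights, DESeq2 1.42.0 (its Wald test, and its size factors in edgeR), totals in place of TMM, a filter of 1 CPM in at least 4 libraries, no filter, and leaving out each library. The comparison and the rules were chosen with earlier results of these data known.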

Additional observations from a re-analysis of the deposited data

Results flagged for a closer look

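A library was set apart where the distance to its nearest neighbour in the group took up most of the group's range (over 0.829 of it for 4 libraries and 0.71 for 5), which chance alone gives in about 1 of 20 groups. This was seen in 8 of 24 groups of values. These reuse the same 9 libraries and include genes picked for their change, so they are not independent.

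Replicate 3 at 48 h was apart in 4 of them. Its score on the first principal component was 19.4, against -48.8 to -34.6 in the other 4 libraries. The risen genes held 4.82% of its counts, against 3.90% to 4.09%. Its median position on the genes called without it was 0.843, against -0.129 to 0.0995. The level of ENSECAG00000010869 was 1.83 CPM, against 0 to 0.271 CPM.

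Replicate 1 at 72 h was apart in the other 4. Its score on the first component was 27.8, against 41.3 to 43.1, and on the second 23.4, against -20.3 to -17.9. Its median position was 0.569, against 1.08 to 1.13. The level of ENSECAG00000017837 was 2.69 CPM, against 0.232 to 0.517 CPM.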

How the results depend on the processing

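The direction of the 4 genes given by ID held under all 20 alternatives, and 3 of them passed the threshold in each. These genes were chosen from the same 9 libraries for groups without overlap, which leaves little room for a change of direction. ENSECAG00000013832 did not pass with the replicate block (adjusted p = 0.0724), against a fold of 1.5 (0.66) or without replicate 4 at 72 h (0.0567). Under no alternative did a gene called in both fits change direction. The number of changed genes was 7117 with limma-voom and sample quality weights (3667 risen, 3450 fallen), 848 with the replicate block (661 risen, 187 fallen), 466 against a fold of 1.5 (415 risen, 51 fallen) and 5203 without replicate 3 at 48 h and replicate 1 at 72 h together (2750 risen, 2453 fallen), the last chosen after seeing the data. DESeq2 gave 1275 fallen genes and library size scaling 487. With each library left out in turn the number ran from 834 to 4711, with 655 to 2459 risen and 179 to 2252 fallen genes. The causes were not tested. The other alternatives gave counts within 1.5 times those reported. Pairs by equal replicate number were not seen in the correlations of their deviations, which were -0.277, -0.227, -0.102 and 0.197 for numbers 1 to 4. Only replicate 4 at 72 h correlated best with its own number. A smaller factor shared by equal numbers could go unseen in these correlations. The labels do not say that equal numbers share anything, so the 848 genes under the replicate block were not read as a weaker effect. Replicate 5 exists only at 48 h, so under the block that library adds nothing to the difference. The block also leaves fewer degrees of freedom for the spread.

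The number of genes detected differed by 329.5 between groups as deposited and by 534 at equal depth, where it passed the threshold. With each library left out, the difference as deposited was 141 to 513 genes. The share of the 100 most abundant genes and the total counts passed under none of the alternatives.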
